A study of Mus musculus with 127 samples.

Results

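Cells of the deposited classes Myelo-3 and Myelo-4 were compared. The class names came from the authors' deposited file of cell classes, and every cell with either name was taken from all gates. Myelo-3 held 9 cells and Myelo-4 held 16, together 25 of the 127 cells of the series. The data were single cell RNA-seq profiles of wild-type C57BL/6 mouse bone marrow, with no treatment, time point or age given in the sources used here. Hindlimb marrow was enriched with CD117 beads (CD117 is the Kit receptor) and sorted, and single cells were captured on the Fluidigm C1 chip system. Cells of the Ly6g high and Ly6g low gates are labelled GMP-P. Those of the gate named CD11b+ are labelled GMP, and their cell names carry another prefix, so gate, label and prefix cannot be told apart. Of the Myelo-3 cells, 3 came from the CD11b+ Ly6g high gate, 2 from the Ly6g low gate and 4 from the gate named CD11b+. Of the Myelo-4 cells, 13 came from Ly6g high, 0 from Ly6g low and 3 from CD11b+. No animal, culture or donor was named, so each class stands for 1 sample, no test was possible, and no difference below has a replicate check. How the class names were assigned is not given in the sources used here. These classes may therefore rest on the same expression values, and the differences between them are a description.

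Neutrophils mature in the marrow through stages that fill different granules in turn. Primary (azurophil) granules with elastase and myeloperoxidase are made first, specific granules with lactoferrin and cathelicidin next, and gelatinase granules with Mmp9 late. Precursors divide in the earlier stages and stop dividing before the nucleus segments, and the transcription factor C/EBPε, encoded by Cebpe, is needed for the specific granule stage. Ly6g is a surface protein of mouse neutrophils, Itgam encodes the CD11b integrin chain, and Retnlg encodes a resistin-like protein abundant in mature neutrophils.

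Both classes had few detected genes. A gene counted as detected in a cell at 1 TPM or more, where TPM is a transcript's share scaled to the same total in every cell. The number of detected genes ran from 821 to 1811 in Myelo-3 (median 1282) and from 966 to 1863 in Myelo-4 (median 1409). In Myelo-2, the class with the most cells (72), it ran from 1359 to 4503 with a median of 2239.5. Within the Ly6g high gate the medians of Myelo-3 and Myelo-4 were 1312 and 1318. Within CD11b+ they were 1153 and 1578. At a detection level of 10 TPM the medians were 773 and 971, against 1635.5 in Myelo-2. These counts stand behind every result below, and their part in the differences was not tested.

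**Figure D1:**
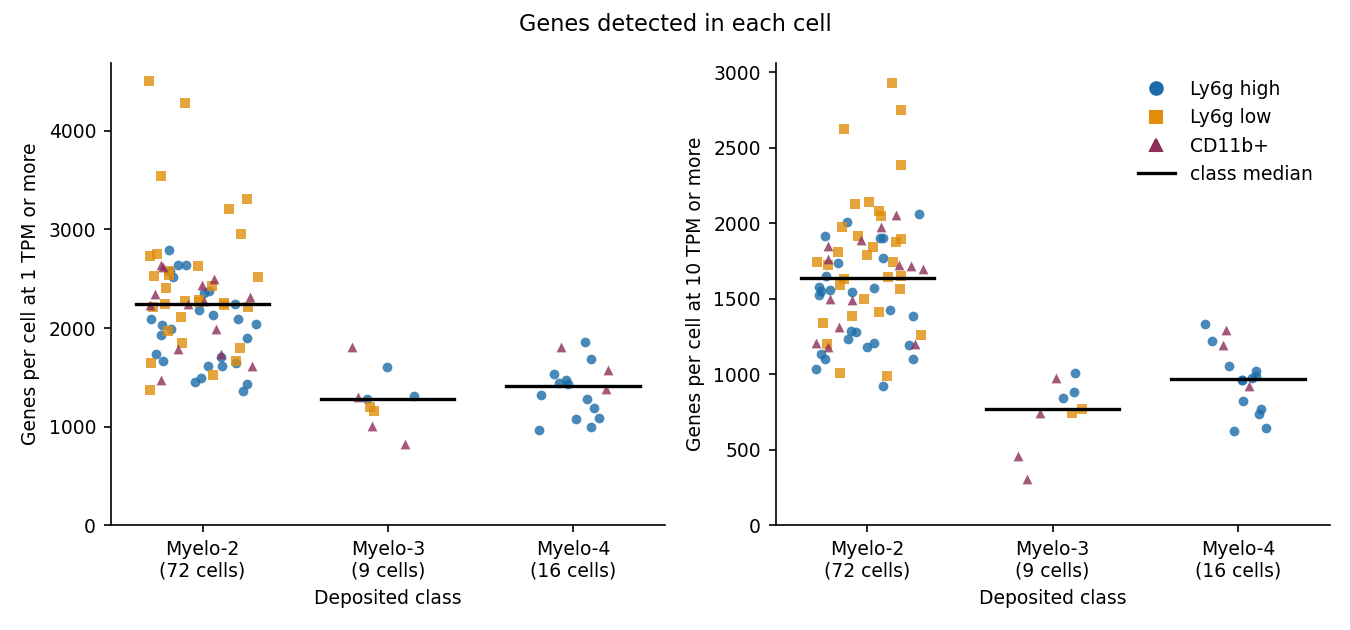
Each point is 1 cell, the vertical axes give genes detected at 1 TPM (left) or 10 TPM (right) or more, colour and shape give the gate, and the black line is the class median. Myelo-3 (median 1282) and Myelo-4 (median 1409) overlap over most of their range, and both medians lie below that of Myelo-2 (2239.5).

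A few cells stood apart from their class, and they were singled out after their values were seen. The top 10 genes took between 46.7% and 81.2% of all TPM in the other cells, but 23.9% in Myelo-3 CD11b+ cell 13 (1304 genes) and 20.3% in Myelo-4 CD11b+ cell 46 (1811 genes). S100a8 and S100a9, which encode the calprotectin subunits, together took 3.44% and 0.232% of TPM in these cells, against class medians of 39.6% and 38.3%. Cell 13 held 884 TPM of Il1b, the gene of interleukin-1β, which was listed at 0 in the other 24 cells. Cell 46 held 6221 TPM of the chemokine gene Ccl3, also listed at 0 in the other 24 cells, and 4461 TPM of the cathepsin gene Ctss.

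Cell 46 also carried monocyte genes. Of 17 monocyte markers in the table, 8 reached 1 TPM in this cell and in no other of the 25. They included the chemokine receptor gene Ccr2 at 1237 TPM, the transcription factor gene Klf4 at 972 TPM, F13a1 at 729 TPM and Csf1r at 11.1 TPM. The summed monocyte level was 18912 TPM in this cell, against at most 4930 TPM in the other Myelo-4 cells. Of the granule genes described below, Camp, Ngp and Lcn2 stood low in this cell, at 14.99, 65.2 and 8.59 TPM, while Mmp8 was at 249 TPM and Lyz2 at 28506 TPM. In all, 15 of its 24 specific granule genes reached 1 TPM. Many of the list values below are given with and without cells 13 and 46.

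The cell names end in a letter and a number read here as the capture position. Code B9 occurred in 3 cells, 1 in each gate, and all 3 were Myelo-3 cells. Of 8 codes found in all 3 gates, 3 had their cells in 1 class, 2 of them in Myelo-2 and 1 in Myelo-3. Columns 8 and 9 held 6 of the 9 Myelo-3 cells and 4 of the 16 Myelo-4 cells, out of 21 cells in all. The part of position in the class differences was not tested. Values without the B9 cells are given for Ly6g, Spi1, Lgals3, Ceacam10 and Capzb, whose ratios moved by more than 1.5 on the log2 scale, and for Ube2v1, whose sign turned.

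The 5 marker genes pointed in different directions. Cebpe was higher in Myelo-3, with 0, 0.79, 1.73, 9.95, 21.4, 69.9, 256, 879 and 941 TPM in the 9 cells. In Myelo-4 Cebpe ran from 0 to 304 TPM with a median of 9.54 TPM, and in Myelo-2 the median was 51.98 TPM. The ranges overlapped, and the log2 ratio of mean TPM was 2.48. Itgam did not separate the classes, with medians of 46.8 TPM in Myelo-3 (0 to 1410) and 35.5 TPM in Myelo-4 (0.13 to 955) and a log2 ratio of 0.09. Its ratio was 0.99 within Ly6g high and 2.05 within CD11b+, and -1.17 with all gates but without Ly6g high cell 73.

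Ly6g, Retnlg and Mmp9 were higher in Myelo-4. Ly6g stood at 0 in 4 Myelo-3 cells and at 2.52, 7.18, 81.7, 613 and 1697 TPM in the other 5. In Myelo-4 it ran from 0 to 4220 TPM with a median of 661 TPM, and 4 of the 16 cells were at 0. Its log2 ratio was -2.49, and -6.53 without the B9 cells, which hold the 613 and 1697 TPM values. Its ratio was -1.26 within Ly6g high and -9.36 within CD11b+. Retnlg and Mmp9 had medians of 1.27 and 2.51 TPM in Myelo-3 and of 7100 and 719 TPM in Myelo-4. In Myelo-2 they were at 0.92 and 0.14 TPM, so on these late markers Myelo-3 went against the description of both classes as late.

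Of all genes, 2416 were measured, meaning detected in 25% or more of the Myelo-3 or of the Myelo-4 cells. The size rule asked for detection in at least 50% of the cells of the higher class and for a difference of 1 or more, the same way, in both the log2 ratio of mean TPM and the mean log2(TPM + 1). By this rule 140 genes (5.79%) were higher in Myelo-3 and 258 (10.7%) higher in Myelo-4. Without cells 13 and 46 the counts were 213 (7.46%) and 258 (9.03%) of 2856 measured genes. Within Ly6g high the order turned, with 335 genes (10.1%) higher in Myelo-3 and 261 (7.88%) higher in Myelo-4 of 3314. Within CD11b+ they were 395 (8.22%) and 658 (13.7%) of 4803. These counts move with class size. The rule asked for 5 of 9 Myelo-3 and 8 of 16 Myelo-4 cells with all gates, and for 2 of 3 and 7 of 13 within Ly6g high. There 1 Myelo-3 cell was enough for a gene to be measured. Leaving out each cell in turn, with all gates, gave 136 to 226 genes higher in Myelo-3 and 224 to 283 higher in Myelo-4. The median log2 ratio of all measured genes was -0.36, and 0.03 without cells 13 and 46, 0.28 within Ly6g high and -0.30 within CD11b+.

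Signs and single cells were counted for both sets. Of the 258 genes, 213 had the same sign in mean log2(TPM + 1) within both Ly6g high and CD11b+, and of the 140, 94 did. These gates hold all the cells that gave the 2 sets except 2 Ly6g low cells of Myelo-3. Agreement in sign is therefore largely built in, and the share over all measured genes is not given here. Of the 140 genes, 62 drew over 50% of their Myelo-3 sum from 1 cell, and of the 258, 48 drew over 50% of their Myelo-4 sum from 1 cell. No gene stood higher in every Myelo-3 cell than in every Myelo-4 cell, and 2 genes (0.0828%), Mmp8 and Mgst1, stood higher in every Myelo-4 cell. Without cells 13 and 46 the counts were 0 and 2 (0.07%) of 2856. In Myelo-2 the mean log2(TPM + 1) was also at least 1 above the lower class for 64 of the 140 and for 220 of the 258.

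**Figure D2:**
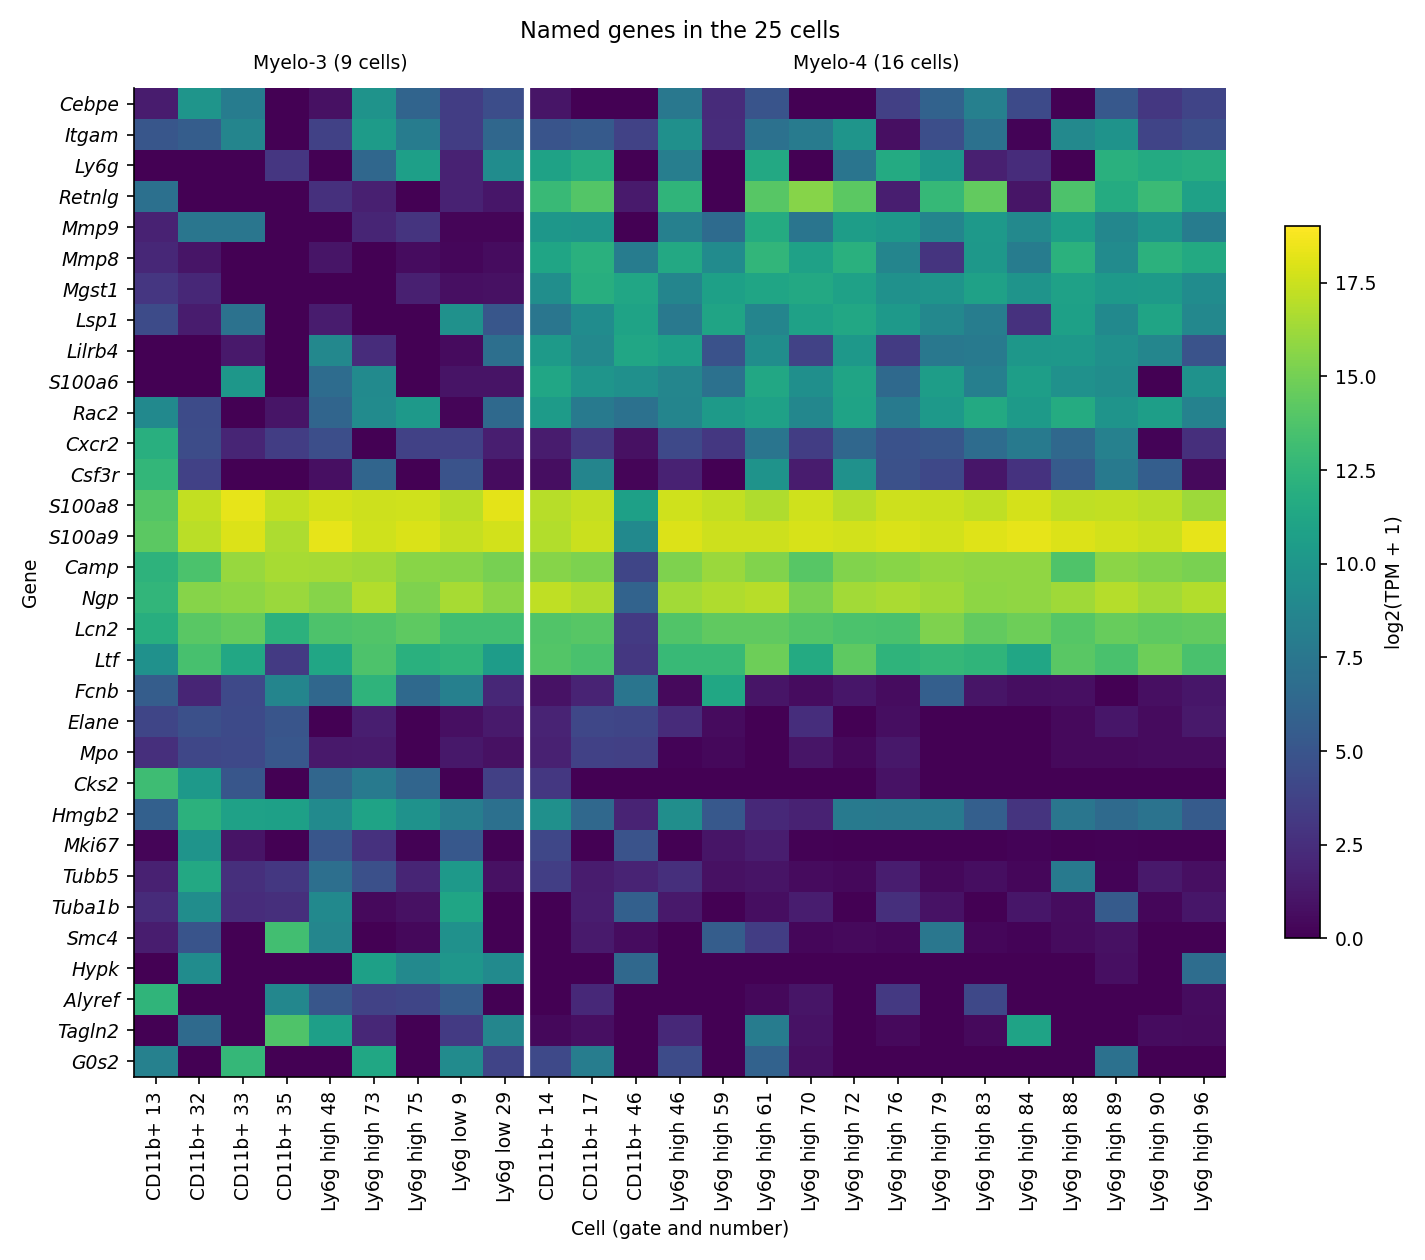
Rows are named genes, columns are the 25 cells grouped by class and then gate, and colour gives log2(TPM + 1). Mmp8 and Mgst1 are dark in all 9 Myelo-3 cells. In Myelo-4 Mgst1 is bright in every cell and Mmp8 in 15 of 16, the lowest being at 6.27 TPM. The S100a8 to Lcn2 block is bright in both classes except CD11b+ cell 46, and Cks2 and Hmgb2 are brighter in Myelo-3.

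Mmp8, the neutrophil collagenase gene, gave the clearest separation. Its values in Myelo-3 were 0 TPM in 3 cells and 0.27, 0.52, 0.57, 1.15, 1.16 and 3.29 TPM in the others. In Myelo-4 the lowest was 6.27 TPM, the median 2053 TPM and the highest 5702 TPM, so the classes did not overlap. The log2 ratio of means was -10.33, and it was -10.52 within Ly6g high and -10.09 within CD11b+. Myelo-2 lay with Myelo-3, with 5 of 72 cells at 1 TPM or more.

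Mgst1, a microsomal glutathione transferase, also separated the classes without overlap. It ran from 0 to 7.09 TPM in Myelo-3 (median 0.74) and from 394 to 3922 TPM in Myelo-4 (median 1561), with a log2 ratio of -9.29. Unlike Mmp8, Mgst1 was well expressed in Myelo-2, where 68 of 72 cells reached 1 TPM and the median was 602 TPM. For this gene the Myelo-3 cells were therefore the ones off the common level.

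Retnlg was nearly all or none within Myelo-4. In 12 cells it stood between 1881 and 47005 TPM, and in the other 4, Ly6g high cells 59, 76 and 84 and CD11b+ cell 46, between 0 and 2.01 TPM. Those 4 cells had 1444, 1476, 996 and 1811 detected genes, which spans most of the class range. In Myelo-3 Retnlg was at 125 TPM in cell 13 and at 5.21 TPM or less in the other 8 cells. The log2 ratio was -9.35, and -12.20 without cells 13 and 46.

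Mmp9, the gelatinase B gene, ran from 0 to 179 TPM in Myelo-3 (median 2.51) and from 0 to 3227 TPM in Myelo-4 (median 719). In Myelo-4 13 of 16 cells stood above the highest Myelo-3 cell, and cell 46 was the 1 at 0.

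**Figure D3:**
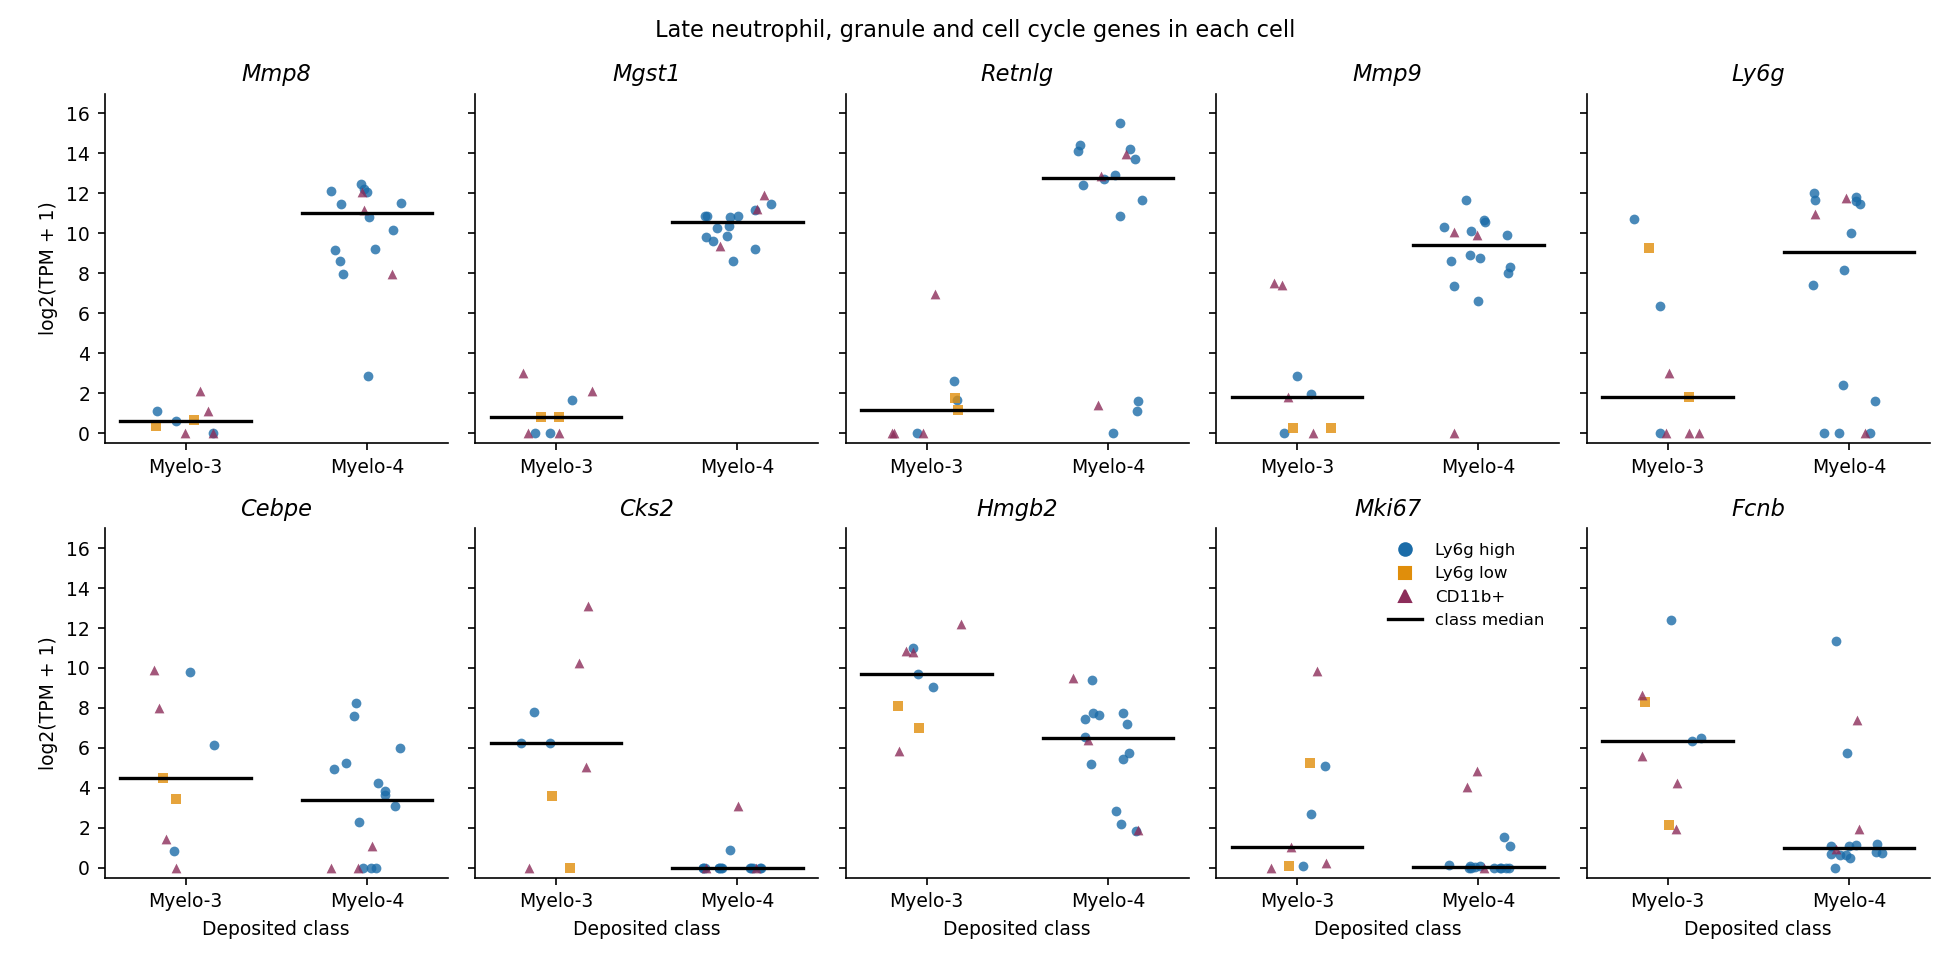
Each point is 1 of the 25 cells, the vertical axis is log2(TPM + 1), colour and shape give the gate, and the black line is the class median. Mmp8 and Mgst1 do not overlap between Myelo-3 and Myelo-4, Retnlg splits Myelo-4 into 12 high and 4 low cells, and Cks2 is at 1 TPM or more in 7 Myelo-3 cells and 1 Myelo-4 cell.

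The promoters of Mmp8 and Retnlg are shown because both are in the late neutrophil list described below and were higher in Myelo-4. Binding of any factor to them was not tested. They are RefSeq windows on GRCm38.p6, from 250 bases before to 50 after the gene start, read on the plus strand at chr9:7558179-7558478 and chr16:48872358-48872657. Capitals mark matches on either strand to TTNNGNAA, a loose form of the motif bound by C/EBP factors.
Mmp8: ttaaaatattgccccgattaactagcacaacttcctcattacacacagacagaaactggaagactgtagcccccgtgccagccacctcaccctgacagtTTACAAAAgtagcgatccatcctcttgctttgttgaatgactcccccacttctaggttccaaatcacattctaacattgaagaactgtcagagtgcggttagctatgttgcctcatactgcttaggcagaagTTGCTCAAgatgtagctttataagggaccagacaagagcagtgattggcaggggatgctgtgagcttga
Retnlg: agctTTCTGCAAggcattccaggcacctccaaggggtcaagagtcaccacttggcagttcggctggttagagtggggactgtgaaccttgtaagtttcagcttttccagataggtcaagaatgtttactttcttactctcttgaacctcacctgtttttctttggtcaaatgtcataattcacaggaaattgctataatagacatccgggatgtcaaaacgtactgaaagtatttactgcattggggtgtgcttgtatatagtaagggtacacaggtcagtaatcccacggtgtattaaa
The Mmp8 window held 2 matches and the Retnlg window 1. At least 1 match stood in 33.1% of the windows of all measured genes, 33.3% of those of genes higher in Myelo-4 and 33.3% of those higher in Myelo-3, and in 40.7% of all 32851 windows of this length. Windows were found for 300 of the 398 genes past the size rule.

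The late neutrophil list, genes of receptors, gelatinase granules and inflammatory proteins of mature neutrophils, leaned to Myelo-4. Of 24 measured members 12 (50%) were higher in Myelo-4 and 0 in Myelo-3, against 10.7% and 5.79% of all measured genes. The median log2 ratio was -1.91 (all measured genes -0.36). Without cells 13 and 46 the counts were 17 and 0 and the median -2.68, against 9.03% and 7.46% of all measured genes. Of the 24, 8 passed the filter through Myelo-4 alone, a choice that favours that class. Over all 42 members in the table, filtered or not, mean TPM was higher in Myelo-4 for 27 and in Myelo-3 for 8, with a median log2 ratio of -0.93. Besides Mmp8, Retnlg and Mmp9, they included the formyl peptide receptor gene Fpr1, the citrullinating enzyme gene Padi4, Mcemp1, Hdc, Dusp1, Adam8, Mxd1 and Ifitm6. Hdc, the histidine decarboxylase gene, had a median of 0.53 TPM in Myelo-3 and 11.6 TPM in Myelo-4. The list took a median of 0.211% of a cell's TPM in Myelo-3 (0.00110% to 3.09%), 1.84% in Myelo-4 (0.708% to 5.95%) and 0.308% in Myelo-2. The highest Myelo-3 share was in cell 13, and the next was 0.637%.

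Receptor genes of mature neutrophils turned on cell 13. Csf3r, the granulocyte colony-stimulating factor receptor gene, was at 6219 TPM in cell 13, which gave 98.2% of the Myelo-3 sum, and at 72.02 TPM or less in the other 8 cells. Cxcr2, a chemokine receptor gene for marrow exit, was at 4012 TPM there and at 22.8 TPM or less in the others. With all cells the log2 ratios were 2.21 for Csf3r and 2.73 for Cxcr2, and without cells 13 and 46 they turned to -3.42 and -2.71. The retention receptor gene Cxcr4 had medians of 1.05 and 27.1 TPM and a log2 ratio of -0.47, short of the size rule (-2.35 within Ly6g high and 1.24 within CD11b+).

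Further genes higher in Myelo-4 came from the 15 with the largest differences. The leukocyte actin-binding protein gene Lsp1 had medians of 1.69 and 571 TPM, and the inhibitory receptor gene Lilrb4 of 0.45 and 562 TPM. The calcium-binding protein gene S100a6 had medians of 1.01 and 768 TPM, with 2.13 TPM in Myelo-2.

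Lgals3, Plp2, Vamp8, Inpp4a, Ndufb7 and Atp5l were also among the 15 genes with the largest differences in mean log2(TPM + 1) toward Myelo-4. Ndufb7 and Atp5l, genes of respiratory complex I and ATP synthase, had medians of 0 TPM in Myelo-3 and of 260 and 455 TPM in Myelo-4. Within Ly6g high the Atp5l medians were 307 and 418 TPM and its ratio was -0.82, short of the size rule. Vamp8, a vesicle fusion protein gene, had medians of 0 and 308 TPM. The phosphatase gene Inpp4a had medians of 0.11 and 211 TPM. Plp2 had medians of 2.31 and 1378 TPM, but its 3482 TPM in cell 13 held its log2 ratio at -1.66 (-9.07 without cells 13 and 46). Lgals3, the galectin-3 gene, had medians of 2.14 and 543 TPM and a log2 ratio of -1.33 that turned to 0.42 within Ly6g high (-8.03 within CD11b+, and -3.65 without the B9 cells). For Mgst1, Ndufb7, Atp5l, Vamp8 and Inpp4a the Myelo-2 medians were 602, 268, 331, 333 and 163 TPM, near Myelo-4 and far from Myelo-3.

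The phagocyte NADPH oxidase, which makes superoxide, leaned the same way. Of its 7 measured genes 4 (57.1%) were higher in Myelo-4 and 0 in Myelo-3, against 10.7% and 5.79% of all measured genes. The median log2 ratio of the 7 was -1.01. Without cells 13 and 46 the count was 2 of 7, as it was within Ly6g high, and within CD11b+ it was 6 of 7. The shares of all measured genes higher in Myelo-4 were 9.03%, 7.88% and 13.7% in these 3 sets of cells. Rac2, the regulatory GTPase gene, had medians of 73.5 and 1271 TPM. Every Myelo-4 cell held at least 137 TPM of Rac2, and 6 of 9 Myelo-3 cells held less. Of 23 measured actin cytoskeleton genes 8 (34.8%) were higher in Myelo-4 and 0 in Myelo-3, with a median of -0.68. Among them Gmfg, an actin network regulator gene, had medians of 5.51 and 678 TPM, and Capzb, a capping protein gene, of 1.77 and 147 TPM (log2 ratio -3.39, and -6.68 without the B9 cells). Of 6 measured interferon-induced genes 3 (50%) were higher in Myelo-4 and 0 in Myelo-3. Ifitm3 had medians of 112 and 1685 TPM, Slfn2 of 0.42 and 177 TPM and Slfn4 of 0 and 102 TPM. Of the 6, 3 passed the filter through Myelo-4 alone, a choice that favours that class. Over all 18 members in the table mean TPM was higher in Myelo-4 for 10 and in Myelo-3 for 4.

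Specific granule and S100 genes were abundant in both classes. S100a8 had medians of 189938 TPM in Myelo-3 and 153767 TPM in Myelo-4, and S100a9 of 205637 and 212267 TPM. Camp, the cathelicidin gene, had medians of 49563 and 43403 TPM, and Ngp, neutrophilic granule protein, of 52534 and 83043 TPM. None of the 4 met the size rule, nor did Lcn2, the lipocalin-2 gene, with medians of 13536 and 18386 TPM. Lyz2, the lysozyme gene, had medians of 11363 and 16178 TPM.

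Within the specific granule list 9 of 22 measured genes (40.9%) were higher in Myelo-4 and 1 (4.55%) in Myelo-3. The shares of all measured genes were 10.7% and 5.79%. The median log2 ratio of the list was -0.82. Ltf, the lactoferrin gene, had medians of 2730 and 9456 TPM and a log2 ratio of -1.32 (-0.86 within Ly6g high). Itgb2l, an integrin chain gene, had medians of 33.5 and 236 TPM, Ceacam10, an adhesion family gene, of 0 and 112 TPM (log2 ratio -4.22, and -8.56 without the B9 cells), and Tcn2, the transcobalamin 2 gene, of 0 and 55.1 TPM. The list took a median of 16.6% of TPM in Myelo-3, 21.3% in Myelo-4 and 27.4% in Myelo-2.

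Fcnb, the ficolin-B gene of earlier neutrophil precursors, was the 1 specific granule gene higher in Myelo-3. Its 9 values were 2.86, 3.42, 17.7, 47.4, 80.0, 89.3, 315, 405 and 5358 TPM. In Myelo-4 13 of 16 cells were at 2.80 TPM or less, and the others were at 53.3, 166 and 2580 TPM. The Myelo-2 median was 1759 TPM, above 8 of 9 Myelo-3 cells and 15 of 16 Myelo-4 cells. The log2 ratio of 1.99 turned to -0.55 without Ly6g high cell 73, which held 84.8% of the Myelo-3 sum.

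The primary granule genes Elane and Mpo were low in both classes. Elane, the neutrophil elastase gene, had medians of 1.99 and 0.56 TPM, and Mpo, the myeloperoxidase gene, of 1.57 and 0.41 TPM, and both met the size rule toward Myelo-3. Their highest values, 30.4 TPM of Elane and 34.8 TPM of Mpo, were in a CD11b+ cell. All 7 CD11b+ cells of the 2 classes held at least 2.64 TPM of Elane and 2.39 TPM of Mpo. The Elane ratio of 1.51 was -0.30 within Ly6g high and 0.93 within CD11b+. Of 12 measured primary granule genes 4 (33.3%) were higher in Myelo-3, also Srgn and Plac8, and 0 in Myelo-4, with a median log2 ratio of 1.20. The shares of all measured genes were 5.79% and 10.7%. Of the 12, 6 passed the filter through Myelo-3 alone. Over all 17 members in the table the median was 0.95, and 0.34 without cells 13 and 46. Without these cells 3 of 13 measured genes were higher in Myelo-3 and 1 in Myelo-4 (7.46% and 9.03% of all measured genes). The share of TPM taken by the list went the other way, with medians of 0.105% in Myelo-3 and 0.239% in Myelo-4 (0.241% in Myelo-2). Cell 13 held the highest share of both classes, 2.25%.

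Genes of dividing cells were higher in Myelo-3, in some of its cells. Cks2, which encodes a subunit of cyclin-dependent kinases, was at 0, 0, 10.9, 32.5, 73.8, 76.1, 218, 1219 and 8753 TPM in Myelo-3. The highest of these values was in CD11b+ cell 13. In Myelo-4 it was at 0 in 14 cells, at 0.86 TPM in 1 and at 7.47 TPM in 1. Detection was in 7 of 9 cells (77.8%, exact 95% binomial interval 39.99 to 97.2%, counting error only) against 1 of 16 (6.25%, 0.158 to 30.2%). The log2 ratio was 9.57, and 7.04 without cells 13 and 46.

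Hmgb2, a chromatin protein gene of dividing cells, was the most even of these genes. It ran from 56.7 to 4647 TPM in Myelo-3 (median 843) and from 2.59 to 730 TPM in Myelo-4 (median 88.4), with a log2 ratio of 2.999. In Myelo-3 5 of 9 cells stood above the highest Myelo-4 cell. Its Myelo-2 median was 980 TPM. The related Hmgb1 had medians of 221 and 8.79 TPM, and Cbx3, a heterochromatin protein gene, of 778 and 4.95 TPM.

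Other cell cycle genes were high in a few Myelo-3 cells. Mki67, the Ki-67 proliferation marker gene, was at 934 TPM in CD11b+ cell 32 (1811 genes), which held 92.4% of the Myelo-3 sum. It was at 36.4, 33.1 and 5.42 TPM in Ly6g low cell 9 and Ly6g high cells 48 and 73, and at 1.05 TPM or less in the other 5. In Myelo-4 its highest value was 28.1 TPM and its median 0.015 TPM, and in Myelo-2 its median was 63.1 TPM. The tubulin genes Tubb5 and Tuba1b had medians of 7.65 and 4.35 TPM in Myelo-3, 0.900 and 1.08 TPM in Myelo-4 and 1546 and 1088 TPM in Myelo-2. Smc4, a condensin subunit gene, had 88.7% of its Myelo-3 sum in CD11b+ cell 35.

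The number of mitosis genes at 10 TPM or more sorted the Myelo-3 cells further. Of 34 genes in the list, Ly6g high cell 48 held 25, CD11b+ cell 32 held 14 and Ly6g high cell 73 held 8. The other 6 Myelo-3 cells held 2 to 5, the Myelo-4 cells 0 to 4 (median 2) and the Myelo-2 cells 2 to 32 (median 21). Cell 48 held 1246 TPM of the cyclin gene Ccnb2, 1265 TPM of the ubiquitin-conjugating enzyme gene Ube2c and 364 TPM of the histone variant gene H2afx. In Myelo-4 no cell exceeded 1.20 TPM of any of the 3. Of 29 S phase genes Ly6g low cell 9 held 12 at 10 TPM or more, and the other Myelo-3 cells held 0 to 5 and the Myelo-4 cells 0 to 2.

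Of 15 measured mitosis genes 5 (33.3%) were higher in Myelo-3 and 0 in Myelo-4, with a median log2 ratio of 4.87. The shares of all measured genes were 5.79% and 10.7%. Of the 15, 9 passed the filter through Myelo-3 alone, a choice that favours that class. Over all 34 members in the table mean TPM was higher in Myelo-3 for 32 and in Myelo-4 for 2, with a median of 3.67, and the median by mean log2(TPM + 1) over the 15 was 2.16. Of 5 measured S phase genes 2 (40%), the nucleotide synthesis genes Rrm2 and Tyms, were higher in Myelo-3. Of the 5, 4 passed the filter through Myelo-3 alone. Rrm2 had 99.0% of its Myelo-3 sum in CD11b+ cell 32, and Tyms had medians of 17.97 and 5.24 TPM. Within Ly6g high the Tyms ratio was -0.07 and 0 of 5 measured S phase genes met the size rule. There 10.1% of all measured genes were higher in Myelo-3. The mitosis list took a median of 0.657% of TPM in Myelo-3 (0.0146% to 2.58%), 0.128% in Myelo-4 (0.00129% to 0.380%) and 1.45% in Myelo-2. The highest share was in cell 32, the Myelo-3 cell with the most detected genes.

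**Figure D4:**
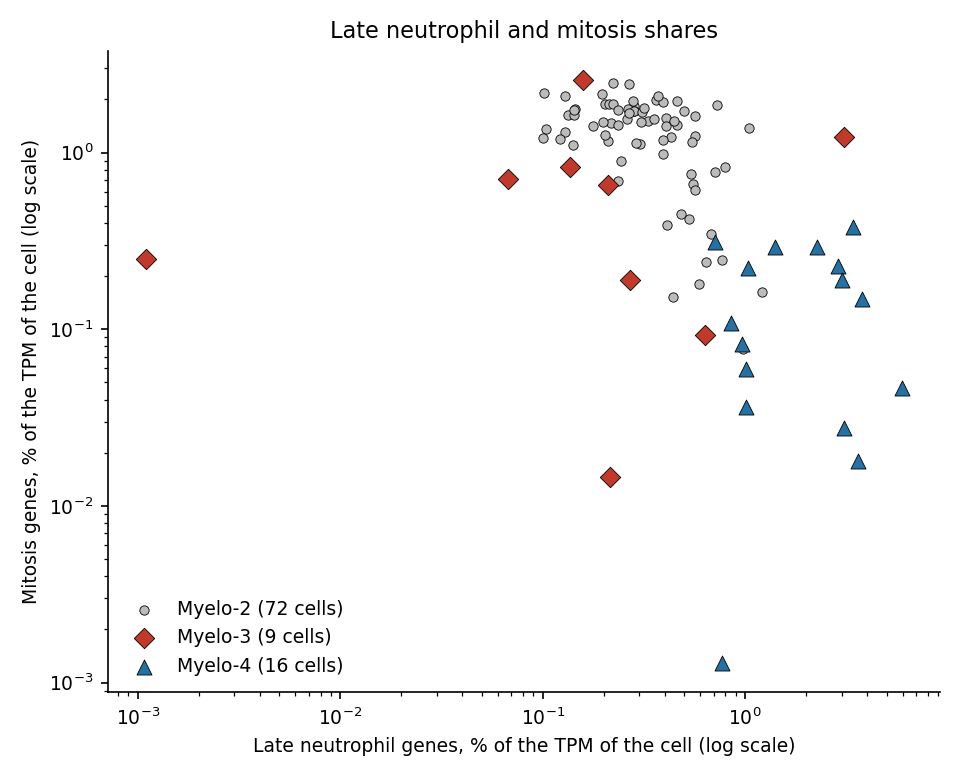
Each point is 1 cell of Myelo-2 (grey), Myelo-3 (red) or Myelo-4 (blue), and both axes are log scales of the percent of the cell's TPM taken by late neutrophil genes (horizontal) and mitosis genes (vertical). Myelo-4 cells lie between 0.708% and 5.95% on the horizontal axis and at or below 0.380% on the vertical one. Myelo-3 CD11b+ cell 13 lies high on both, though only 5 of 34 mitosis genes reach 10 TPM in it, against 25 in Myelo-3 Ly6g high cell 48.

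The promoters of Cks2 and Mki67 are shown because both genes are cell cycle genes higher in Myelo-3. The RefSeq windows lie on GRCm38.p6 at chr13:51644982-51645281 on the plus strand and chr7:135716330-135716629 on the minus strand. Capitals mark matches on either strand to CCAAT, the box bound by NF-Y, and to TTTGAA, the cell cycle homology region.
Cks2: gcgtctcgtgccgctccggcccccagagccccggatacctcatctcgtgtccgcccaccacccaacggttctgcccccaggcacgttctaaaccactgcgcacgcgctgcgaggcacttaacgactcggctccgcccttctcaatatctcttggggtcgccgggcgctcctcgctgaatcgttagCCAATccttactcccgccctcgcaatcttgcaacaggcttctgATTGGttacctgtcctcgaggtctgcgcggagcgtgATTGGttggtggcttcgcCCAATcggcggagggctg
Mki67: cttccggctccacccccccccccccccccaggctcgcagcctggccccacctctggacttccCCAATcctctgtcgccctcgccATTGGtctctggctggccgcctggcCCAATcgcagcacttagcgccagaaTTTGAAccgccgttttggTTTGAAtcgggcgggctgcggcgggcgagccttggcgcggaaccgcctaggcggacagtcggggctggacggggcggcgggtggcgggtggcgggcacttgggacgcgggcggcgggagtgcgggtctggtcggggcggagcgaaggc
The Cks2 window held 4 CCAAT boxes and no TTTGAA, and the Mki67 window 3 and 2. At least 1 CCAAT box stood in 36.7% of the windows of all measured genes, 38.1% of those higher in Myelo-3, 36.2% of those higher in Myelo-4 and 37.4% of all windows. For TTTGAA the shares were 11.2%, 15.1%, 10.2% and 17.9%, and the 15.1% stood for 19 of 126 windows.

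The other genes among the 15 with the largest differences toward Myelo-3 shared no list. Hypk, the partner of huntingtin and of a protein acetylase, was between 490 and 1754 TPM in 5 Myelo-3 cells and at 0 in the other 4. In Myelo-4 14 cells were at 0.69 TPM or less. Of the 3 B9 cells, Ly6g high cell 75 was at 490 TPM, Ly6g low cell 29 at 555 TPM and CD11b+ cell 33 at 0. Ctla2a, a cysteine protease inhibitor gene, was at 0.89 TPM or more in every Myelo-3 cell (median 19.5) and had a median of 0.76 TPM in Myelo-4.

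For several of these genes 1 cell set the size. Alyref, an mRNA export factor gene, had 90.8% of its Myelo-3 sum in cell 13, medians of 14.6 and 0 TPM and a log2 ratio of 7.85 (4.53 without cells 13 and 46). Tagln2, the transgelin-2 gene, had 86.3% of its sum in CD11b+ cell 35 and medians of 8.36 and 0.42 TPM. G0s2, a lipase inhibitor gene, had medians of 14.1 and 0 TPM and 64.9% of its sum in CD11b+ cell 33. Atp5f1 (ATP synthase), Tuba4a (tubulin) and Ube2v1 (a ubiquitin-conjugating enzyme variant) had log2 ratios of 1.72, 1.84 and 1.11. Each of these 3 turned under an alternative, Atp5f1 to -0.76 within Ly6g high, Tuba4a to -1.46 within CD11b+ and Ube2v1 to -0.01 without the B9 cells.

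Transcription factor genes were mostly too low to compare. Of 15 measured granulocyte regulators 4 (26.7%) were higher in Myelo-4 and 1 (6.67%), Cebpe, in Myelo-3, against 10.7% and 5.79% of all measured genes. Of the 15, 3 passed the filter through Myelo-4 alone and 1 through Myelo-3 alone. Spi1, the gene of the myeloid factor PU.1, had medians of 0 and 4.38 TPM (log2 ratio -2.53, and -5.39 without the B9 cells), Nfe2 of 0.85 and 138 TPM, and Ikzf1, the Ikaros gene, of 0.88 and 29.2 TPM. Gfi1 reached 1 TPM in 1 Myelo-3 cell and 0 Myelo-4 cells, and Cebpa in 0 and 1. Cebpd had medians of 3.66 and 1.06 TPM, and Cebpb was at 0 at the median of both.

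The other lists are read against the 10.7% of all measured genes higher in Myelo-4 and the 5.79% higher in Myelo-3. The proteasome and lysosome list had 3 of 17 measured genes higher in Myelo-4 and 0 in Myelo-3. Its median log2 ratio was -1.93. Of the 17, 5 passed the filter through Myelo-4 alone and 1 through Myelo-3 alone. The median was -1.07 over the 11 that passed through both, and -1.85 over all 24 members in the table. The adhesion and chemotaxis list had 8 of 20 higher in Myelo-4 and 1, the integrin gene Itga4, in Myelo-3, with a median of -1.24. Of the 20, 5 passed the filter through Myelo-4 alone and 1 through Myelo-3 alone. Without cells 13 and 46 the list's counts were 12 and 0 and its median -2.46, and within CD11b+ they were 7, 3 and -0.06. The shares of all measured genes were 9.03% and 7.46% without cells 13 and 46, and 13.7% and 8.22% within CD11b+. The immediate early list had 4 of 13 higher in Myelo-4, Fos among them, and 1, Jun, in Myelo-3, with a median of -1.51 (-0.39 without cells 13 and 46). The nuclear shape list had 3 of 11 higher in Myelo-3, Hmgb1, Hmgb2 and Cbx3, and 1 in Myelo-4, with a median of 0.90. Respiratory chain genes had 4 of 28 higher in Myelo-4 and 1 in Myelo-3 (median -0.39), glycolysis 2 of 12 and 0 (median 0.14), and antioxidant genes 2 of 15 and 0 (median -0.34). These counts and that of the proteasome list, 13.3% to 17.6% of the measured genes of each list, lay near the share over all genes. The antioxidant count was 4 of 15 and the respiratory chain median 0.07 without cells 13 and 46. The glycolysis median was -0.64 without cells 13 and 46 and -1.88 within Ly6g high. The endoplasmic reticulum list had 1 of 14, Canx, higher in Myelo-3 (median -0.61, and 0.46 without cells 13 and 46). The inflammatory activation list had 0 of 8 either way, with a median of 0.94 that was -0.81 without Ly6g low cell 29, -1.16 within Ly6g high and -2.55 within CD11b+.

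Ribosomal protein genes split both ways. Of 75 measured, 6 (8%) were higher in Myelo-3 and 13 (17.3%) in Myelo-4, with a median log2 ratio of 0.02. Without cells 13 and 46 the order turned, with 19 higher in Myelo-3 and 5 in Myelo-4 of 76 and a median of 0.79. Within Ly6g high the counts were 13 and 8, and within CD11b+ 5 and 42 of 79, with a median of -3.03. In that gate the list took 14.6% of TPM in Myelo-4 cell 46, but 1.71% and 1.33% in Myelo-4 cells 14 and 17. Both lay below the Myelo-3 cells of the gate, at 2.04%, 1.83%, 2.14% and 8.30% in cells 13, 32, 33 and 35. The shares of all measured genes were 5.79% and 10.7% with all cells, and 7.46% and 9.03% without cells 13 and 46. They were 10.1% and 7.88% within Ly6g high, and 8.22% and 13.7% within CD11b+. Rps16 had medians of 140 and 35.1 TPM, and Rpl22l1 was listed at 0 in all 9 Myelo-3 cells and had a median of 1.96 TPM in Myelo-4. These genes, like the tubulins and Hmgb2, have near-identical copies, so how reads were divided among the copies is uncertain.

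Markers of other blood cells were scattered. Of 11 B cell markers 10 were at 0 in all 25 cells, Cd79a among them, and 10 of 13 erythroid markers were at 0, including Hba-a1 and Hbb-b1. At 0 in all 25 were also 4 of 8 eosinophil markers, 6 of 8 megakaryocyte markers and 7 of 9 T and NK cell markers. Other members were present in some cells. Ear2 of the eosinophil list reached 1 TPM in 3 Myelo-3 and 8 Myelo-4 cells (highest 2192 TPM). Gp1bb of the megakaryocyte list did so in 1 and 3 cells (highest 142 TPM). The T cell gene Cd3d did so in 0 and 2 (highest 485 TPM), and Tfrc of the erythroid list in 1 and 1 (highest 524 TPM). Of 10 progenitor markers 7 were at 0 in all 25, and Kit reached 1 TPM in 0 Myelo-3 and 2 Myelo-4 cells, although CD117 beads had been used. Myb, a progenitor transcription factor gene, reached 1 TPM in 3 Myelo-3 cells and 1 Myelo-4 cell.

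Macrophage genes appeared in single cells of both classes. Ly6g low cell 29 of Myelo-3 held 1701 TPM of the complement gene C1qb, and Ly6g high cell 73 of Myelo-3 held 110 TPM of Vcam1 and 36.1 TPM of Spic. Ly6g high cell 76 of Myelo-4 held 170 TPM of C1qa, 137 TPM of Mrc1 and 1007 TPM of the antigen-presentation gene H2-Aa. The summed macrophage level ran from 0 to 1704 TPM in Myelo-3 and from 0 to 386 TPM in Myelo-4, with a median of 0 in both. The part of these genes in the class differences was not tested.

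Myelo-3 cells were less alike than Myelo-4 cells. Over the 2416 measured genes, the median Pearson correlation of log2(TPM + 1) was 0.28 among 36 Myelo-3 pairs, 0.37 among 120 Myelo-4 pairs and 0.28 between the classes. Myelo-3 cells correlated with Myelo-2 cells at a median of 0.32 and Myelo-4 cells at 0.35, against 0.46 within Myelo-2. Apart from the pairs with CD11b+ cell 46, where S100a8 and S100a9 took 0.232% of TPM, these pairs share the high S100 and granule genes. The Myelo-3 cells came from 3 gates and 13 of the 16 Myelo-4 cells from Ly6g high. The part of gate in the correlations was not tested. Detected genes had medians of 1282, 1409 and 2239.5 in Myelo-3, Myelo-4 and Myelo-2.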

How the data were processed

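Each sample was 1 cell. The authors deposited log2(TPM + 1) values for 23946 genes in 127 cells, and a file giving each cell 1 of 11 class names. Bowtie2, RSEM and the build mm9 are named in the submitters' processing notes, with no versions given. The unit was checked on the values, whose TPM summed to between 999633 and 1005383 in each cell. No columns were identical. TPM keeps no read depth, so genes detected per cell stand in for it. Values were turned back to TPM with Python 3.11.15, numpy 2.4.6 and pandas 2.3.3. Ratios are log2 of mean TPM after adding 1 TPM to each mean, which understates differences near 1 TPM. Exact binomial intervals (Clopper-Pearson, scipy 1.17.1) cover counting error only. All cells of both classes were used, no doublet caller was run, and cells were not clustered again.

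The compared classes, the 30 gene lists and the rules were chosen with earlier results of these data known. Always named were 30 fixed genes. Then came the 15 genes each way with the largest difference in mean log2(TPM + 1) that met the size rule, had a mean of at least 10 TPM and kept their sign within Ly6g high and within CD11b+, leaving out predicted loci and ribosomal, small RNA and mitochondrially encoded genes. From each list with at least 3 measured genes up to 4 with the largest ratios could be named. Il1b, Ctss, Ccl3 and the other cell type markers were named after their values were seen. Some genes that these rules name are not reported here. A check of the steps was run, and its results are not reported here. Alternatives changed the pseudocount, the filters, the kind of mean, the scaling, the gates and the cells used. Genome sequence of mm9 was not used here, so the files' genes have no coordinates, and promoter windows carry their own build.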

Additional observations from a re-analysis of the deposited data

Results flagged for a closer look

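Among the 9 Myelo-3 cells, 36 results were checked for a cell whose gap to the nearest other cell was large against the whole range (past Dixon's 95% critical value for 9 values), and 14 passed. Chance passes about 1 in 20 where values are normally distributed. The results include shares of TPM and genes not detected in most cells, such as Gfi1, Irf8 and Kit. The 14 passes therefore cannot be set against that rate. The results also share cells and are not independent. Myelo-4 has too many cells for this check. No cause was weighed.

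CD11b+ cell 13 (1304 detected genes) gave most of them. It stood high for the primary granule share (2.25% of TPM, next 0.375%) and the late neutrophil share (3.09%, next 0.637%). On the log2(TPM + 1) scale it stood high for Retnlg (6.98, next 2.63), Cxcr2 (11.97, next 4.57) and Csf3r (12.60, next 6.19). It stood low for Ngp (12.53, next 15.30), S100a8 (13.93, next 17.04) and S100a9 (14.20, next 16.64).

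CD11b+ cell 32 (1811 genes) stood high for the mitosis share (2.58% of TPM, next 1.22%) and for Gfi1 (1.65, the other 8 cells at 0). CD11b+ cell 35 (821 genes, the fewest) stood high for the ribosomal protein share (8.30%, next 4.96%) and for Kit (0.97, under 1 TPM), and low for Ltf (3.22, next 9.62). Ly6g high cell 48 (1606 genes) stood high for Irf8 (0.73, under 1 TPM).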

How the results depend on the processing

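No paired analysis was possible because the results come from no test and the cell numbers pair nothing across classes. Each class is 1 sample, and 9 cells set the precision of Myelo-3. The count of genes higher in Myelo-3 (140) was 335 within Ly6g high, 395 within CD11b+, 215 with cells of the shared range of detected genes, 69 with detection at 10 TPM, 31 at 100 TPM, 213 without CD11b+ cells 13 and 46 and 337 without the B9 cells. Leaving out each cell in turn gave 136 to 226. These counts move with class size, since the rule asks for 5 of 9, 4 of 8 or 3 of 6 cells. The count of genes higher in Myelo-4 (258) was 437 by the difference of mean log2(TPM + 1) alone, beside 169 higher in Myelo-3, 658 within CD11b+, 171 at 10 TPM and 83 at 100 TPM, and 224 to 283 with each cell left out.

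List medians of the log2 ratio moved as follows, and the causes were not tested. Primary granule (1.20) was 0.47 with a pseudocount of 10 TPM and 0.48 within Ly6g high, and 0.97 to 1.48 with each cell left out. Specific granule (-0.82) was -1.85 by mean log2(TPM + 1), and -1.20 to -0.68. Late neutrophil (-1.91) was -2.95 within Ly6g high, -3.09 without each gene's highest cell per class, -2.68 without cells 13 and 46, and -2.71 to -1.54 with each cell left out. S phase (2.78) was 1.80 with no filter, 1.78 by mean log2(TPM + 1), 0.63 within Ly6g high, 1.67 without the highest cells, 5.08 without each class's cell of fewest genes, 5.09 in the shared range, 4.67 without cells 13 and 46, 5.49 without the B9 cells, and 2.07 to 5.08 with each cell left out. Mitosis (4.87) was 5.75 and 3.24 with pseudocounts of 0.1 and 10 TPM, 3.67 with no filter, 2.16 by mean log2(TPM + 1), 3.74 within Ly6g high, 3.30 within CD11b+, 4.16 without the highest cells, 5.52 without the B9 cells, and 3.85 to 5.16 with each cell left out. Ribosomal protein (0.02) was -0.60 by mean log2(TPM + 1), -3.03 within CD11b+, 0.79 without cells 13 and 46, and -0.34 to 0.77. The difference in median genes detected per cell (-127) was -425 within CD11b+ and -170.5 to -104 with each cell left out. The alternatives without cells 13 and 46 and without the B9 cells were chosen after the data were seen.

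Ratios of single genes that were at least 1 in size turned sign as follows. Cxcr2 was -0.56 by mean log2(TPM + 1), -2.75 within Ly6g high, -2.21 without the highest cells, -2.71 without cells 13 and 46 and from -2.62 (without cell 13) to 3.14 with each cell left out. Csf3r was -0.83, -2.63, -2.77, -3.42 and from -3.33 to 2.77 in the same order. Within Ly6g high Elane was -0.30, Atp5f1 -0.76, Lgals3 0.42, Mcm4 -0.021, Tyms -0.070 and Ly6c2 0.27. Within CD11b+ Tuba4a was -1.46, Pcna -1.45 and Hk2 0.29. Ube2v1 was -0.0078 without the B9 cells. With each cell left out it ran from -0.42 (without Ly6g high cell 75) to 2.21, Pcna from -0.16 (without Ly6g low cell 9) to 4.204, and Fcnb from -0.55 (without Ly6g high cell 73) to 5.42. The monocyte list median (-1.10) ran from -3.07 to 0.75 (without CD11b+ cell 46).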
